A study of Mus musculus with 38 samples.

Results

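The genes described here encode actin, the myosin motors and light chains, and the proteins that bind, cut, cap, branch and bundle actin filaments or tie them to the membrane. They were chosen by gene symbol, with a mean level of at least 1 TPM (an abundance corrected for transcript length and scaled to the same total in every library) over 24 RNA libraries of mouse cortical collecting duct. Among 55416 genes of that set, 100 symbols matched, and 70 reached the minimum and are the members. The lowest members were Pfn3 and Myh7, with means of 1.73 and 1.35 TPM, and the nearest genes outside were Myo1f at 0.981 TPM and the pseudogene Actr3-ps at 0.879 TPM. A second RNA table, which lists 5035 genes, holds 42 of the 70 members, and the other 28 are not listed in it.

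Collecting duct principal cells take up water through the channel aquaporin-2, which vesicles carry to the apical membrane when vasopressin acts on its V2 receptor. A cortical web of actin lies under that membrane: in cultured collecting duct cells, loss of filamentous actin goes along with arrival of the channel at the surface, and myosin motors and ezrin, radixin and moesin have been placed at the same vesicles or membrane. Filaments grow from profilin-bound monomers, branch from the Arp2/3 complex, are capped and cut by capping protein, cofilin and gelsolin, and are pulled by nonmuscle myosin II.

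All samples were cortical collecting ducts (CCDs) dissected by hand from mouse kidneys labelled C57BL/6. The first RNA comparison set 4 libraries from WT mice infused with dDAVP (desmopressin, a vasopressin analogue that acts on the V2 receptor) for 5 days against 4 libraries from WT mice infused with saline for 5 days. An ATAC-seq comparison, which maps open chromatin by transposase insertion, set 3 dDAVP samples against 3 saline samples of the same kinds, with 3 ducts taken into each reaction. The second RNA comparison set 4 MT units against 4 WT units with 3 libraries each, where MT carries a mutation of the protein kinase A target site S552 in β-catenin. The labels of these 24 libraries all name dDAVP, WT mice and C57BL/6, only the titles separate MT from WT, and the name of the table says noAVP, so whether these mice received dDAVP could not be settled from the labels. A gene-level table does not show a point mutation, so the MT label could not be checked either. The title of the fourth dDAVP RNA library gives CCD-4 beside dDAVP-3. The labels do not say that a unit or library is a separate animal, so p-values measure the spread between these samples, which may be technical.

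Aqp2, the water channel gene, stood at 51774 to 72251 TPM in the dDAVP libraries and 18074 to 21874 TPM in the saline libraries, with no overlap. In the separately made MT and WT set, Aqp2 had unit means of 12217 to 22497 TPM in MT and 11231 to 27628 TPM in WT. Read depth is unknown, because the tables give TPM only. Listed genes summed to 895155 to 925759 TPM per library in the dDAVP set. Rank correlations set saline libraries 3 and 4 apart. They had medians of 0.813 and 0.778 to the other 7 libraries, against 0.880 to 0.916 in the remaining 6. The proximal tubule marker Slc34a1 reached 2286 TPM in saline library 3 and was lowest, at 27.2 TPM, in saline library 4. Umod, a marker of the thick ascending limb, was far higher in dDAVP library 1 (5253 TPM) than in dDAVP libraries 2 to 4 (21.0, 100.1 and 82.9 TPM) or any saline library (84.1 to 825 TPM). Between MT and WT all 6 tested proximal tubule genes and all 4 thick limb genes had log2 fold changes below 0, with none called. Umod had 13.3, 13.3, 99.9 and 80.3 TPM in MT units and 863, 7.27, 250.4 and 489 TPM in WT units. Slc34a1 was at 165 TPM in MT unit 4 and at most 5.46 TPM in the other MT units, and at 392.4 TPM in WT unit 3 and at most 39.4 TPM in the other WT units. Of the smooth muscle and pericyte markers Acta2, Myh11, Tagln, Cnn1, Des, Lmod1 and Rgs5, 5 of 7 were under 1 TPM in every MT and WT unit, and the summed level of the 7 was 2.11 to 7.14 TPM in MT and 2.93 to 3.69 TPM in WT. All 4 skeletal muscle markers were under 1 TPM in every unit. Leukocyte markers were present, with 8 genes summing to 152 to 582 TPM in MT and 129 to 624 TPM in WT.

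The collecting duct expressed a mainly nonmuscle set of these genes. Muscle genes were among the members, with means over the 24 libraries of 115 TPM for Cfl2, 13.5 TPM for Actn2 and 5.01 TPM for Actn3. Myl4 and Myh7 had 3.19 and 1.35 TPM. In most families a single paralogue carried more RNA than all the others together. Over the 24 libraries the 70 members together took 1.85 to 2.26% of all TPM in MT (median 2.09%, 12 libraries) and 1.78 to 2.18% in WT (median 1.97%, 12 libraries). The 42 listed members took 1.45 to 1.75% in dDAVP libraries and 1.45 to 2.03% in saline libraries. Both pairs of ranges overlapped.

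Actb, the cytoplasmic β-actin, was the most abundant member over the 24 MT and WT libraries. Its unit means were 5773, 5328, 5228 and 4441 TPM in MT, against 5118, 5142, 4620 and 4437 TPM in WT. Actg1, the cytoplasmic γ-actin, averaged 1745 ± 80.8 TPM in MT and 1688 ± 224 TPM in WT (SD, n = 4 units each). Actb took 74.8% of the sum of both actins in MT and 74.2% in WT, and 74.2% in dDAVP libraries and 73.5% in saline libraries. The coding sequences of the 2 actins are close to identical, so the split between them rests on how the authors' quantification divided shared reads (RSEM is among the tools in the submitters' processing notes).

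Tmsb4x, thymosin β4, which sequesters actin monomers, followed with 4091 ± 491 TPM in MT and 3843 ± 164 TPM in WT. It held 97.6% of the thymosin TPM in both groups. In the dDAVP comparison Tmsb4x came before Actb. Tmsb4x averaged 3634 TPM in dDAVP and 4668 TPM in saline libraries, and Actb 2097 and 2641 TPM. Only in saline library 3 was Tmsb4x below Actb. Tmsb10, a close relative of Tmsb4x, averaged 20.6 ± 2.99 TPM in MT and 20.4 ± 4.49 TPM in WT. Tmsb15b1, Tmsb15b2 and Tmsb15l lie on the X chromosome within overlapping annotations, so their separate values are uncertain. Among profilins, which feed monomers to growing ends, Pfn1 held 82.2% of the TPM in MT and 83.3% in WT, Pfn2 held 17.4% and 16.1%, and the testis genes Pfn3 and Pfn4 stayed under 4 TPM in the mean of either group. Among the severing proteins of the cofilin family, Cfl1 and Dstn (destrin) stood side by side at 482 ± 23.7 and 462 ± 10.5 TPM in MT and 467 ± 23.0 and 399 ± 28.5 TPM in WT. Cfl2, the muscle cofilin, was lower at 118 ± 1.14 TPM in MT and 112 ± 7.74 TPM in WT. Cfl1 and Dstn were further apart in the dDAVP comparison. There Cfl1 held 62.8% and Dstn 30.7% of the TPM of these 3 genes in dDAVP libraries, and 60.5% and 31.2% in saline libraries. Gsn, gelsolin, which severs and caps filaments in response to calcium, averaged 480 ± 27.6 TPM in MT and 478 ± 42.9 TPM in WT.

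Of the genes of the Arp2/3 complex, which starts branches, 9 were members, and Actr3b was not among them. Arpc1b was the highest at 424 ± 18.3 TPM in MT and 415 ± 22.6 TPM in WT, and Actr2, which encodes the Arp2 subunit, the lowest at 37.7 ± 4.19 and 35.8 ± 2.59 TPM. Arpc1b held 68.1% of the Arpc1 TPM in MT and 66.9% in WT, and Arpc5 held 55.7% and 53.4% of the Arpc5 TPM, so both paralogues of each of these subunits were in use at the RNA level. Of the capping protein α subunits Capza2 held 89.3% in MT and 90.5% in WT, and the β subunit gene Capzb averaged 257 ± 22.4 and 244 ± 26.8 TPM.

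Ezr (ezrin), which links filaments to the apical membrane, held 84.2% of the ezrin, radixin and moesin TPM in MT and 84.3% in WT. Rdx (radixin) held 13.1% and 13.0%, and Msn (moesin) 2.77% and 2.79%. The order was the same in the dDAVP table, where Ezr took 81.4% in dDAVP libraries and 83.8% in saline libraries. Msn varied most of the 3 between libraries, from 5.57 to 25.2 TPM in MT with a median of 14.1 TPM, and from 5.79 to 20.5 TPM in WT with a median of 13.4 TPM. Moesin is abundant in endothelium and leukocytes, whose markers were present in these libraries, and their part in the spread was not tested. Actn4, the α-actinin of epithelia and podocytes, held 91.7% of the actinin TPM in MT and 91.3% in WT. The muscle gene Actn3 varied between libraries, with a median of 3.72 and a highest value of 12.2 TPM in MT. In WT the median was 2.36 TPM and the highest library, at 34.1 TPM, lay far above it.

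Tropomyosins, which coat filaments and set which motors and severing proteins reach them, were shared out among 3 genes, with Tpm1 at 51.8% in MT and 51.1% in WT, Tpm4 at 29.0% and 30.4%, and Tpm3 at 19.1% and 18.4%. Tpm2 did not reach the minimum level. Myh10, the IIB heavy chain of nonmuscle myosin II, was the highest of its 3 heavy chains, with 58.1% in MT and 55.2% in WT, ahead of Myh9 (IIA) with 31.3% and 34.2% and Myh14 (IIC) with 10.5% and 10.6%. The unit ranges of these shares did not cross between heavy chains. The light chains were far more abundant as RNA than the heavy chains: Myl6, the essential light chain, averaged 842 ± 32.5 TPM in MT and 857 ± 33.9 TPM in WT, and the regulatory light chains Myl12b and Myl12a, which are neighbours on chromosome 17, averaged 812 ± 69.7 and 606 ± 73.0 TPM in MT and 775 ± 32.4 and 598 ± 60.9 TPM in WT. Myl9, the regulatory light chain of smooth muscle, averaged 4.10 ± 2.75 TPM in MT and 4.30 ± 0.636 TPM in WT.

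Among 17 unconventional myosins the highest were Myo1c, a membrane-bound class I motor, at 145 ± 6.89 TPM in MT and 132 ± 4.20 TPM in WT, and Myo6, the motor that moves toward the minus end of filaments, at 123 ± 7.25 and 118 ± 11.2 TPM. Myo18a followed at 86.0 ± 8.37 and 82.1 ± 21.3 TPM. Of the class V motors, which carry recycling vesicles, Myo5c held 53.4% of the class V TPM in MT and 55.4% in WT, and Myo5b, which has been linked to aquaporin-2 recycling, held 34.0% and 33.3%, with 28.3 ± 1.29 and 25.5 ± 2.42 TPM. The actin-related proteins outside the Arp2/3 complex were also present: Actr10, Actr1b and Actr1a, which belong to the dynactin complex of the microtubule motor dynein, averaged 131, 102 and 85.2 TPM in MT and 117, 103 and 86.5 TPM in WT, and the nuclear Actr8, Actr5 and Actr6 were between 12.6 and 65.6 TPM in either group.

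**Figure D1:**
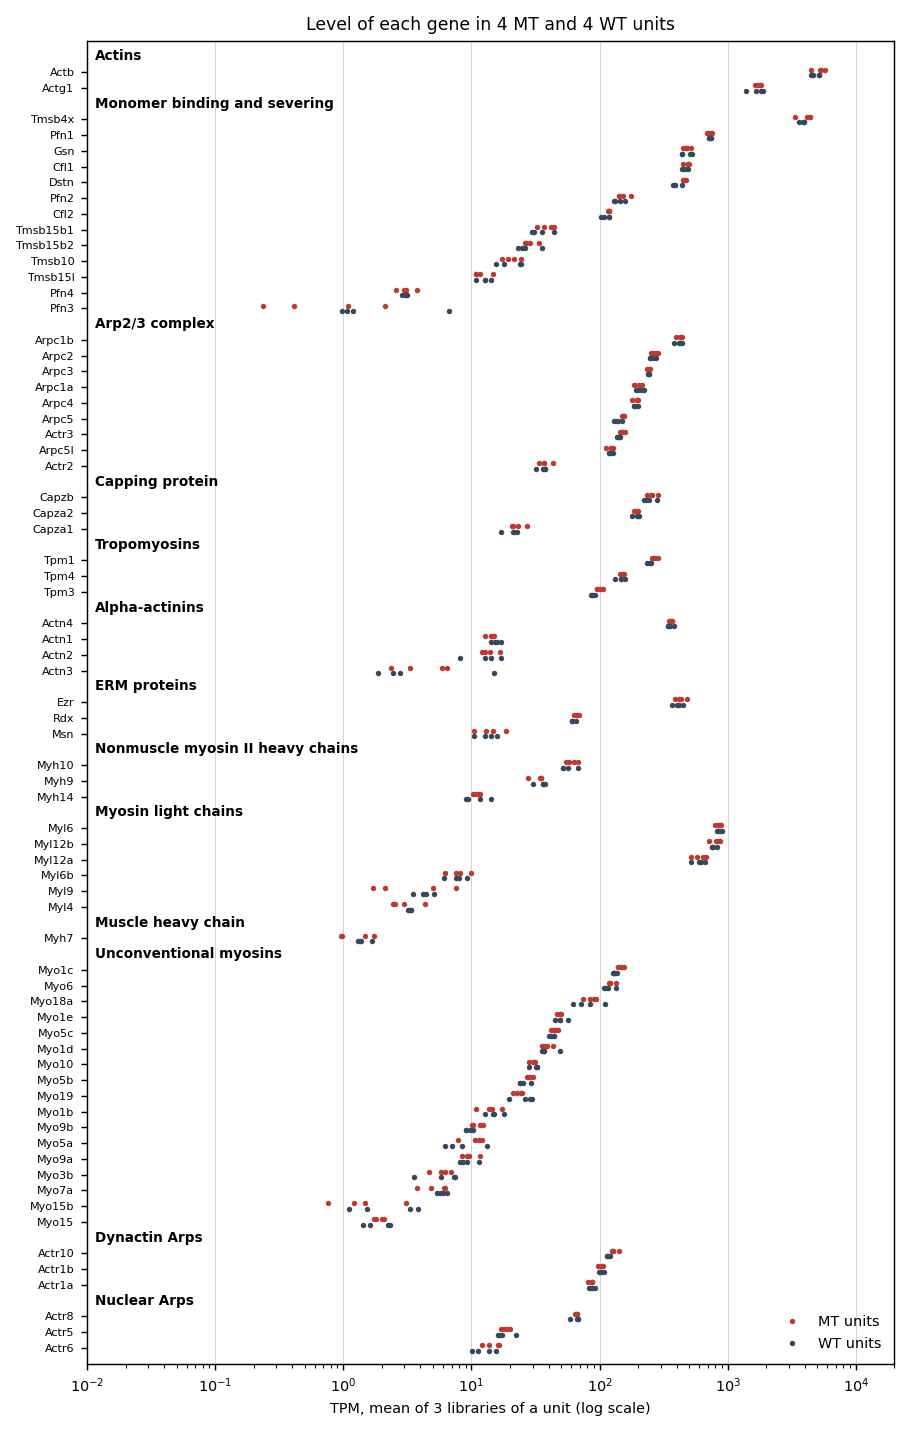
TPM of all 70 members on a log scale, grouped by role. Each point is 1 unit (mean of 3 libraries), with 4 MT units in red above 4 WT units in dark blue. Actb and Tmsb4x sit highest, and the points of both groups lie on each other for most genes.

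The members were steady between libraries of a unit. With a mean of at least 100 TPM, 30 members had a median coefficient of variation of 5.83% between libraries of a unit and 4.79% between units of a group, and the 1817 genes tested at that level had 6.37% and 6.38%. Myl6 varied by 3.21% between libraries of a unit and Arpc4 by 3.54%, whereas the reference genes of many assays, Actb and Actg1, varied by 11.2% and 11.6%. WT unit 1 library 1 held the highest Actb and Actg1 values of its group, 6846 and 2376 TPM, beside group medians of 4756 and 1710 TPM. The libraries of the dDAVP comparison were less alike: the median coefficient of variation of the 42 listed members was 16.1% over dDAVP libraries and 20.6% over saline libraries, and over all 5035 genes 20.0% and 29.3%. Saline library 4 held the highest value of 13 members and the lowest of 12, or 59.5% of the 42 at an extreme, and did so for 51.9% of all listed genes.

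No member passed the threshold after dDAVP infusion. The 3 genes furthest above their saline level were Tpm4, Pfn2 and Myl12b, and those furthest below were Myo1c, Actr1a and Actr1b. In limma on log2(TPM + 1), with Benjamini-Hochberg adjustment over all 5035 genes and a threshold of 0.05, 0 of 42 listed members were called, where 35 genes or 0.695% of the table were called. Unadjusted, 4 members had p below 0.05, which is 9.52% of the members, against 11.0% of all genes. In the upward direction they were 2 members, Myl12b and Pfn1, against 4.17% of all genes. By the adjusted p-values in the authors' deposited table, 0 of 42 members and 52 of 5035 genes, 1.03%, were below 0.05, and the smallest member value was 0.439 for Myo1c. The median log2 fold change was -0.03 over members and -0.06 over all listed genes, with 19 members above 0 and 23 below. Every gene listed there is above 10 TPM in all 8 libraries, so a member under that level in any library could not appear.

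The largest difference was in Myo1c. Its level was 90.6, 77.7, 55.3 and 46.4 TPM in dDAVP libraries 1 to 4, against 113, 105, 166 and 125 TPM in saline libraries 1 to 4. Every dDAVP library lay below every saline library. The log2 fold change was -0.93 with a standard error of 0.26 and a 95% interval of -1.51 to -0.36, and the limma p-value was 0.0044 before adjustment and 0.199 after it. Under other settings of the fit the adjusted p lay between 0.149 and 0.468, and without saline libraries 3 and 4 the log2 fold change was -0.73 (limma adjusted p 0.429). Without dDAVP library 1, the library high in Umod, it was -1.09, with an adjusted p of 0.220. Groups that did not overlap occurred in 4 of 42 members and in 432 of 5035 genes, 8.58%. In 3 of the 4 dDAVP was the higher group, as in 3.56% of all genes. In this table the log2 fold changes of all 7 intercalated cell markers were below 0 and none was called (smallest limma adjusted p 0.0769, Rhbg), while 43.6% of all genes in the table were above 0. The summed level of the 7 was 1756 to 2867 TPM in dDAVP libraries and 3041 to 4048 TPM in saline libraries. Their part in the Myo1c difference was not tested. In whole ducts fewer cells of a type and less RNA per cell cannot be told apart.

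The other class I myosins overlapped between the groups. Myo1e, a long-tailed class I motor, had 51.2, 47.2, 30.8 and 27.7 TPM in dDAVP libraries and 40.6, 40.2, 55.7 and 26.7 TPM in saline libraries. Myo1d, a short-tailed relative of Myo1c, had 14.7, 12.8, 12.2 and 11.4 TPM in dDAVP libraries and 13.7, 11.5, 11.5 and 18.2 TPM in saline libraries. Their log2 fold changes were -0.06 and -0.07. Myo1c took a smaller share of the class I TPM, 56.2 ± 1.49% in dDAVP libraries with a range of 54.3 to 57.9%, against 69.8 ± 3.12% in saline libraries with a range of 66.9 to 73.6% (SD, n = 4 each). An exact two-sided permutation test on this share gave p = 0.0286, the smallest that 4 against 4 samples allow, and 0.236 after adjustment over the 11 family shares compared, a test added after the values had been seen. The share is made from the same Myo1c values that had drawn attention to the gene, so this p is no separate evidence beside the RNA difference. Without saline libraries 3 and 4 the share was different by -11.1 percentage points (dDAVP minus saline), and -13.6 with all libraries.

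Myo1c lies on chromosome 11 at 75650519 to 75674643 of GRCm38.p6, and RefSeq gives it 3 start sites along the plus strand, each with an ATAC peak in the authors' deposited table. At the first start the group signal in the authors' deposited table was 6.73 log2 units in dDAVP and 7.94 in saline, with a log2 fold of -1.09 and an adjusted p of 1.67e-05. At the second start the authors' deposited table gives 5.70 in dDAVP and 6.29 in saline, a fold of -0.48 and an adjusted p of 0.181. At the third start the authors' deposited table gives 7.57 in dDAVP and 8.01 in saline, a fold of -0.32 and an adjusted p of 0.315. Peaks over start windows of any gene within 0.5 log2 units of the first peak's signal had a median fold of -0.54 in the authors' deposited table. Of these, 4 of 2761, or 0.145%, were as low, the first peak itself included. For the third start, 93.4% of 3292 like peaks, itself included, were as low or lower in the authors' deposited table. These 3 starts were looked at because of the RNA values. The table gives 1 value per group, so the spread between samples at these peaks could not be assessed, and gene-level TPM does not say which start made the RNA. The windows at the first start and the third, 250 bases before to 50 after the start, are printed from RefSeq (GRCm38.p6, plus strand) because one carries the peak called lower and the other a strong peak that was not called. Capitals mark the bases under the ATAC peak.
Myo1c, the first start, chr11:75650269-75650568: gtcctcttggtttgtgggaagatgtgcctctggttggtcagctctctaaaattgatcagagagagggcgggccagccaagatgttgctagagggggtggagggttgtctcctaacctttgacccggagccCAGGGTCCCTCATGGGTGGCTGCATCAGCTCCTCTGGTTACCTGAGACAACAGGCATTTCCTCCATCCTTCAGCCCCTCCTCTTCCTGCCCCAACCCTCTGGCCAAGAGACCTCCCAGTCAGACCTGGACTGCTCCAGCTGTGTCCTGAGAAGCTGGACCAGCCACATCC
Myo1c, the third start, chr11:75655765-75656064: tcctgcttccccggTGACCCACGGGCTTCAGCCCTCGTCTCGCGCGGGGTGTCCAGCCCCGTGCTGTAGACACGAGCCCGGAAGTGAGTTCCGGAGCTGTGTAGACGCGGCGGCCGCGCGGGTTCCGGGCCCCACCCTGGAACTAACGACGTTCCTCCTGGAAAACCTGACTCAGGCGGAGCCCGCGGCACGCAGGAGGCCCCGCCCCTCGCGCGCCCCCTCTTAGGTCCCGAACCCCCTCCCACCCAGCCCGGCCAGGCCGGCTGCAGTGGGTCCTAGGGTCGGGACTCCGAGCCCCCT
The first window holds 2 CpG dinucleotides and 58.0% G and C, the second 14 and 59.3%, and the third one 32 and 72.0%.

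**Figure D2:**
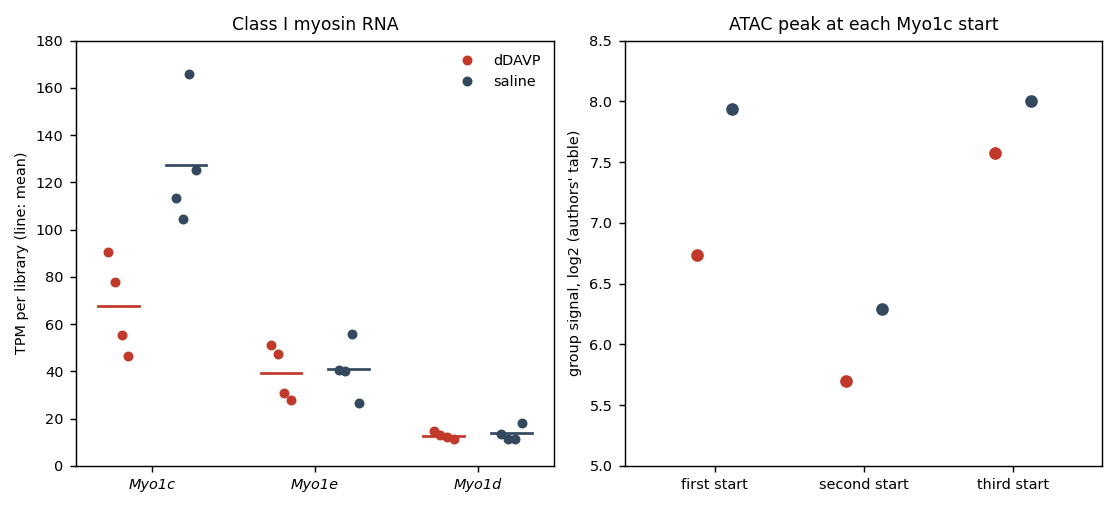
Left, TPM of the 3 class I myosins listed in the dDAVP table, 1 point per library, with 4 dDAVP libraries left of 4 saline libraries and a line at each mean. Right, the authors' deposited group signal (log2) of the ATAC peak at each Myo1c start, dDAVP left of saline. Myo1c dDAVP points all lie below the saline points, and the gap in ATAC signal is widest at the first start.

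The actins and gelsolin averaged less in dDAVP than in saline libraries and did not pass the test. Actb had 1843, 2599, 1832 and 2113 TPM in dDAVP libraries, against 1989, 3227, 2877 and 2470 TPM in saline libraries, a log2 fold change of -0.32 (SE 0.18). Actg1 had 609, 1097, 686 and 574 TPM in dDAVP libraries, against 1022, 1079, 760 and 871 TPM in saline libraries, a log2 fold change of -0.37 (SE 0.21). In both genes dDAVP library 2 was the highest of its group, inside the saline range for Actb and just above it for Actg1, and the groups overlapped. Without that library the log2 fold change of Actg1 was -0.57. Gsn had 263, 298, 301 and 272 TPM in dDAVP libraries, against 400, 301, 384 and 389 TPM in saline libraries. Saline library 2 was at the level of the dDAVP libraries and the other 3 were above them, with a log2 fold change of -0.37 (SE 0.15) and a limma adjusted p of 0.398. Immediate early genes, which tissue handling or a stimulus can induce quickly, were also lower in 11 of 12 listed cases with none called. Jun had 45.0, 233, 42.9 and 36.5 TPM in dDAVP libraries, against 248, 547, 167 and 513 TPM in saline libraries. Junb had 234, 1159, 158 and 98.6 TPM in dDAVP libraries, against 930, 2274, 1074 and 2433 TPM in saline libraries. In both of these dDAVP library 2 was again the highest of its group and lay within the saline range. Their part in the actin values was not tested.

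Other monomer and severing genes went either way. Pfn1 had 1467, 1494, 1400 and 1334 TPM in dDAVP libraries and 1207, 1135, 1277 and 1085 TPM in saline libraries, so every dDAVP library was above every saline library, by 0.28 on the log2 scale (SE 0.12), with an adjusted limma p of 0.448. Pfn2, the profilin of neurons, had 170, 135, 135 and 162 TPM in dDAVP libraries and 100, 106, 64.1 and 170 TPM in saline libraries, which overlapped through saline library 4, and without saline library 3 its log2 fold change was 0.29 in place of 0.52. Tmsb4x had 4028, 4096, 3404 and 3007 TPM in dDAVP libraries and 5036, 4052, 2533 and 7049 TPM in saline libraries, with both the lowest and the highest value in saline, in libraries 3 and 4. Its log2 fold change was -0.28, and -0.54 and -0.05 without saline library 3 and without saline library 4. Cfl2 had 83.7, 74.5, 56.8 and 56.5 TPM in dDAVP libraries and 69.7, 81.8, 114 and 88.2 TPM in saline libraries and overlapped, with a log2 fold change of -0.37, or -0.25 without saline library 3. Cfl1 and Dstn had log2 fold changes of 0.03 and -0.04, at 659 ± 31.9 and 322 ± 26.5 TPM in dDAVP libraries and 651 ± 112 and 335 ± 60.7 TPM in saline libraries (SD, n = 4 each).

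All 3 listed myosin light chains and 2 of 3 tropomyosins were above 0, none called. Myl12b had 917, 968, 944 and 1010 TPM in dDAVP libraries and 791, 692, 601 and 874 TPM in saline libraries. The groups did not overlap, and the fitted difference was 0.39 on the log2 scale (SE 0.15), with an adjusted limma p of 0.364. Myl6 had 857, 860, 769 and 861 TPM in dDAVP libraries and 744, 687, 659 and 789 TPM in saline libraries, where dDAVP library 3 lay below saline library 4. Myl12a, the neighbour of Myl12b, was at 509 ± 70.8 TPM in dDAVP libraries and 510 ± 145 TPM in saline libraries. Tpm4 had 247, 288, 182 and 140 TPM in dDAVP libraries and 144, 171, 151 and 111 TPM in saline libraries, the largest positive log2 fold change of the 42 at 0.53 (SE 0.24), with the groups overlapping through dDAVP library 4. The endothelial markers Plvap and Emcn, which summed to 161 to 424 TPM in dDAVP libraries and 111 to 202 TPM in saline libraries, were above 0 as well, with neither called, and their part in these values was not tested. Tpm4 took 42.01% of the tropomyosin TPM in dDAVP libraries and 34.4% in saline libraries, a difference with an exact permutation p of 0.0571 and an adjusted p of 0.236. That share too is made from the Tpm4 values above. Myh10, the only myosin II heavy chain listed, had 52.0, 46.4, 75.4 and 30.0 TPM in dDAVP libraries and 33.3 to 41.9 TPM in saline libraries, and dDAVP library 3 alone stood far above the rest. Its log2 fold change was 0.35, and 0.14 without that library and 0.57 without dDAVP library 4.

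Of the 9 listed Arp2/3 genes 6 were above 0 and 3 below, with log2 fold changes of -0.23 for Arpc1b to 0.35 for Arpc3 and none called. Arpc4 did not overlap between groups, at 172, 171, 193 and 164 TPM in dDAVP libraries and 161, 160, 144 and 127 TPM in saline libraries (log2 fold change 0.25, SE 0.17). Arpc3 had 252, 236, 245 and 234 TPM in dDAVP libraries and 245, 189, 120 and 230 TPM in saline libraries, with saline library 1 inside the dDAVP range, and without saline library 3 its log2 fold change was 0.13. All 3 dynactin genes were below 0. Actr1a had 59.7, 61.3, 42.8 and 66.2 TPM in dDAVP libraries and 72.3, 58.4, 75.3 and 158 TPM in saline libraries, and Actr10 had 113, 105, 135 and 113 TPM in dDAVP libraries and 113, 102, 164 and 289 TPM in saline libraries. Saline library 4 was the highest of all in both genes. Without it the log2 fold changes were -0.26 for Actr1a and -0.09 for Actr10, against -0.56 and -0.39 with it, and without saline libraries 3 and 4 that of Actr10 was 0.11. Actr1b had 87.5, 70.2, 87.9 and 49.3 TPM in dDAVP libraries and 92.4, 85.9, 126 and 113 TPM in saline libraries and overlapped, with a log2 fold change of -0.52, or -0.34 without dDAVP library 4. Of the membrane linkers, Ezr averaged 320 ± 47.7 TPM in dDAVP libraries and 345 ± 24.0 TPM in saline libraries, Rdx 51.8 and 47.5 TPM, and Msn 21.1 and 19.2 TPM, and none of the 3 was called. Their log2 fold changes were -0.12, 0.12 and 0.09, and each 95% interval held 0.

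**Figure D3:**
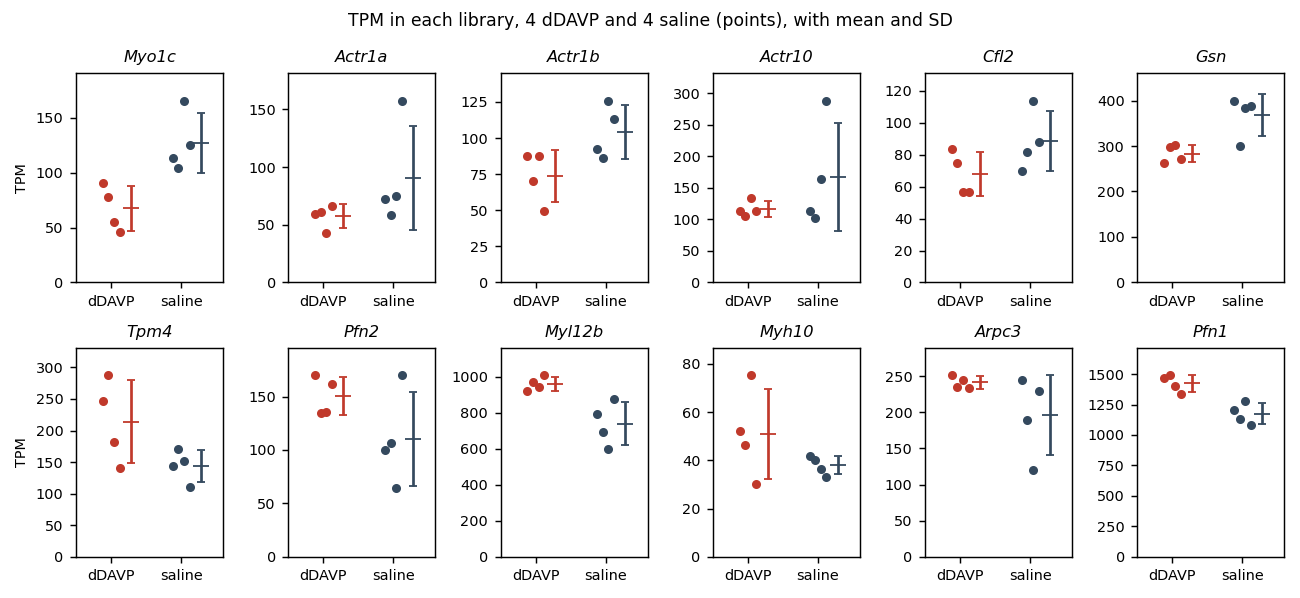
TPM in each of 4 dDAVP libraries (red, left) and 4 saline libraries (dark blue, right) for 12 members, with mean and SD beside the points. Myo1c, Myl12b and Pfn1 have no overlap between the groups, and a single saline library sets the saline mean of Actr1a and Actr10.

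No member passed the test between MT and WT units. The genes with the smallest p, Dstn, Tpm3 and Actr10, averaged 462, 99.3 and 131 TPM in MT and 399, 88.5 and 117 TPM in WT. Under limma with adjustment over 15013 genes, 0 of 70 members and 0 genes in all were called, 0.0% of those tested. Unadjusted, 8 members had p below 0.05, 11.4% of the 70 and all of them higher in MT, against 683 genes or 4.55% in all and 395 or 2.63% in the upward direction. The count of members depended on the fit. It was 4 with the replicate block, 6 under median of ratios, 6 without the trend and 10 without WT unit 2. Of the thick limb markers, none called, Slc12a1 averaged 3.87 TPM in MT and 58.4 TPM in WT, and Cldn16 averaged 2.09 TPM in MT and 7.60 TPM in WT (unadjusted limma p 0.0281, adjusted 0.969). Their part in these counts was not tested. The median log2 fold change was 0.05 over members, with 49 of 70 above 0, and 0.01 over all genes, with 53.2% above 0. Leaving out WT unit 3 brought the member median to -0.003 with 34 of 70 above 0, so that unit decided the direction of the median. The median over all genes was then -0.002, and 9 members still had an unadjusted limma p below 0.05. WT unit 3 is the unit with 392.4 TPM of Slc34a1, and it also held the highest Slc22a6 and Slc13a3 values, 32.8 and 9.97 TPM. The part of proximal tubule RNA in the member values was not tested. For 63 of 70 members the 95% interval of the log2 fold change lay within -0.5 and 0.5, and for 66 within -1 and 1. In the dDAVP comparison the same held for 6 and 34 of 42 members, so the intervals of that comparison were wider.

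Dstn had the smallest p of the members. Its unit means were 450, 456, 468 and 473 TPM in MT, against 441, 377, 391 and 388 TPM in WT. All MT units were above all WT units, by 0.21 on the log2 scale (SE 0.06), with a limma p of 0.0048 and 0.969 after adjustment. WT unit 1 held the highest WT library, 590 TPM. Groups without overlap occurred in 5 of 70 members, Dstn, Tpm1, Tpm3, Myo1c and Actr10, and in 453 of 15013 genes, 3.02%. All 5 were higher in MT, as were 1.85% of all genes. Tpm3 had 107, 94.9, 99.97 and 95.4 TPM in MT and 89.3, 91.4, 87.9 and 85.4 TPM in WT, at a log2 fold change of 0.16 (SE 0.05). Tpm1 averaged 270 ± 14.1 TPM in MT and 245 ± 7.72 TPM in WT, and all 3 tropomyosins were above 0. Myo1c stood at a log2 fold change of 0.14 (SE 0.05) and Actr10 at 0.16 (SE 0.05).

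Of the larger fold changes most belonged to weakly expressed genes. Myo5a, the vesicle motor of melanocytes and neurons, had 7.78, 10.7, 12.1 and 11.5 TPM in MT and 6.22, 7.08, 13.1 and 8.44 TPM in WT. Actr6, of a nuclear chromatin complex, had 13.6, 16.4, 16.1 and 12.0 TPM in MT and 15.7, 11.2, 10.0 and 13.6 TPM in WT. Both had groups that overlapped, with log2 fold changes of 0.28 for Myo5a and 0.20 for Actr6. With a unit left out they lay between 0.15 (without WT unit 1) and 0.47 (without WT unit 3) for Myo5a, and between 0.10 (without WT unit 3) and 0.30 (without WT unit 1) for Actr6. On the other side Pfn3 had 0.413, 0.237, 1.097 and 2.13 TPM in MT and 0.973, 1.07, 6.70 and 1.18 TPM in WT, where a single WT unit made the mean, and the log2 fold change of -0.64 was -0.17 without that unit. Myo15b had 0.757, 1.20, 1.48 and 3.07 TPM in MT and 1.11, 1.53, 3.83 and 3.31 TPM in WT. Myl9 had 5.01, 1.70, 2.11 and 7.58 TPM in MT and 4.18, 3.52, 5.06 and 4.44 TPM in WT, and its library values reached 11.7 TPM in MT and 7.26 TPM in WT. MT units 1 and 4, which held its 2 highest MT values, also held the highest Acta2 values, 2.62 and 2.04 TPM. Acta2 was at 0.180 to 1.00 TPM in the other 6 units. WT unit 3, with 5.06 TPM of Myl9, was among these, at 1.00 TPM of Acta2. The part of smooth muscle in Myl9 was not tested. Myo7a, a stereocilia motor, had 3.79, 4.83, 6.24 and 6.12 TPM in MT and 5.41, 5.95, 5.71 and 6.44 TPM in WT. Myo19, a mitochondrial motor, had 20.9, 22.7, 24.5 and 24.9 TPM in MT and 29.6, 19.6, 26.3 and 28.6 TPM in WT. Myo15b, Myl9, Myo7a and Myo19 had log2 fold changes of -0.38, -0.21, -0.16 and -0.14, and all 4 overlapped. With a unit left out Myo15b ranged from -0.61 (without MT unit 4) to -0.18 (without WT unit 3), Myl9 from -0.51 (without MT unit 4) to 0.04 (without MT unit 2), Myo7a from -0.24 (without MT unit 3) to -0.04 (without MT unit 1) and Myo19 from -0.27 (without WT unit 2) to -0.08 (without WT unit 1).

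The genes closest to vesicle traffic and the apical cortex were near their WT level. Ezr had unit means of 387, 415, 436 and 478 TPM in MT and 413, 364, 445 and 403 TPM in WT. Rdx had 66.2, 63.1, 69.2 and 67.2 TPM in MT and 61.4, 65.6, 61.0 and 60.8 TPM in WT. Myo5b had 30.0, 27.9, 26.9 and 28.5 TPM in MT and 23.9, 29.1, 24.0 and 25.1 TPM in WT. WT unit 2 overlapped MT in both Rdx and Myo5b. Myh9 had 34.8, 34.7, 34.3 and 27.9 TPM in MT and 37.7, 36.4, 30.3 and 36.5 TPM in WT, and Gsn had 450, 473, 480 and 517 TPM in MT and 440, 443, 525 and 504 TPM in WT. The log2 fold changes were 0.08 for Ezr, 0.07 for Msn, 0.09 for Rdx, 0.15 for Myo5b, -0.09 for Myh9 and 0.01 for Gsn, none of them called.

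**Figure D4:**
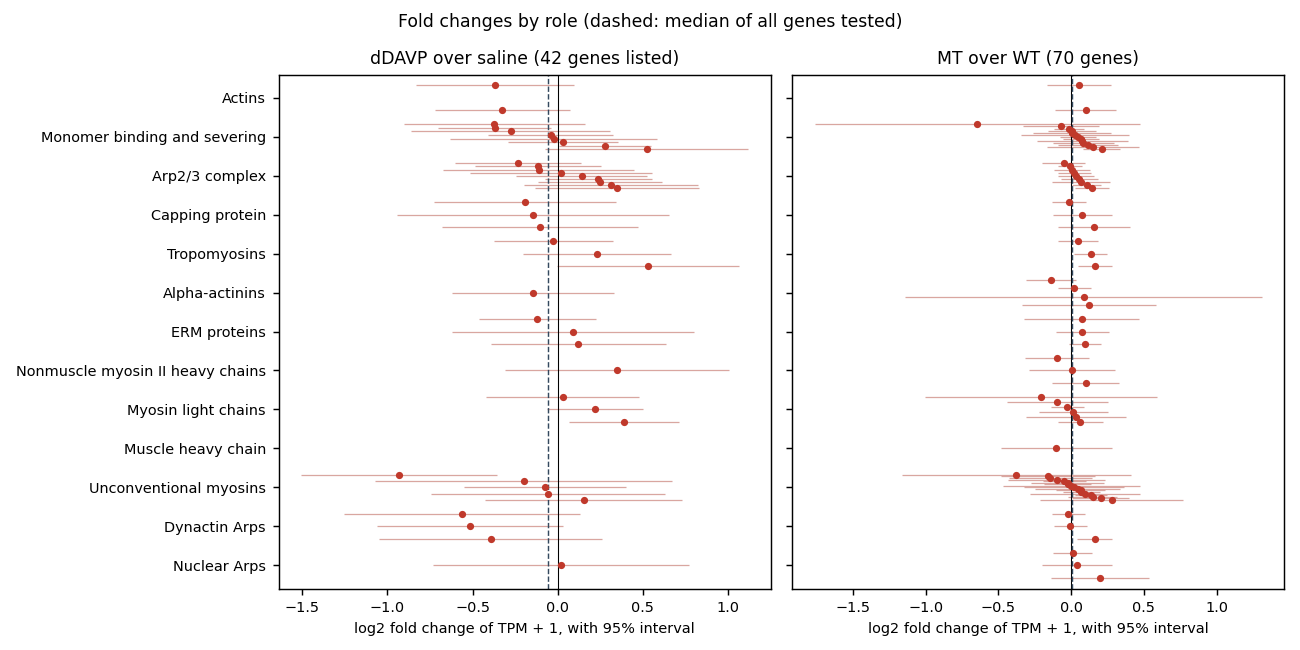
Log2 fold change of each member with its 95% interval, by role, for dDAVP over saline (left, 42 members) and MT over WT (right, 70 members). The dashed line is the median of all genes tested. Every interval is unadjusted, and no member passed 0.05 after adjustment in either panel.

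Genes that act on these proteins were read from 3 gene lists, and none of their members was called in either comparison. Of the nucleators and their activators 2 of 6 were above 0 with dDAVP and 9 of 15 in MT. Cttn, cortactin, which stabilises Arp2/3 branches, stood at 196 ± 37.0 TPM in dDAVP libraries and 288 ± 85.0 TPM in saline libraries (log2 fold change -0.53, SE 0.22), and Cyfip1, of the WAVE complex that activates Arp2/3, at 71.1 ± 6.03 and 59.9 ± 37.9 TPM. In MT Cttn averaged 283 TPM and Nckap1, of the same complex, 117 TPM, against 266 and 109 TPM in WT. Of the helpers of severing and turnover 5 of 8 were above 0 with dDAVP. Capg and Scin, both relatives of gelsolin, had the smallest p there: Capg stood at 231 ± 14.9 TPM in dDAVP libraries and 139 ± 57.3 TPM in saline libraries (log2 fold change 0.81, SE 0.24, and 0.225 for the adjusted limma p), and Scin at 196 ± 32.8 and 133 ± 22.6 TPM (0.56, SE 0.20). The log2 fold change of Gsn, given above, had the opposite sign. In MT against WT 10 of 14 of these genes were above 0, and those of smallest p were Twf1, a monomer-binding twinfilin, and Wdr1, a cofilin helper, at 40.4 and 299 TPM in MT and 36.2 and 280 TPM in WT. Of bundling and membrane skeleton genes 5 of 11 were above 0 with dDAVP, with Ank3 at 19.1 ± 6.08 and Sptan1 at 123 ± 20.6 TPM in dDAVP libraries and 40.4 ± 22.5 and 82.3 ± 22.6 TPM in saline libraries. In MT against WT the same list had 12 of 19 above 0, with Evl, a helper of filament elongation, at 41.3 ± 4.41 TPM in MT and 33.1 ± 3.45 TPM in WT, and Vcl, vinculin, at 26.7 and 23.8 TPM.

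Serum response factor (SRF) drives many actin genes through the CArG box, a 10-base element. Its list had 5 genes in the dDAVP set, 4 of them below 0 and none called, with the smallest p for Egr1, an immediate early gene, at 99.0, 1833, 62.4 and 36.4 TPM in dDAVP libraries and 344, 2128, 492 and 1269 TPM in saline libraries. Its log2 fold change was -2.51 (SE 1.02), with 0.398 for the adjusted limma p. The groups overlapped through dDAVP library 2, which stood far above the other dDAVP libraries, as for Jun and Junb. Cnn3, calponin 3, was at 632 ± 83.7 TPM in dDAVP libraries and 809 ± 116 TPM in saline libraries. In MT against WT 9 of 13 were below 0, none called, with Fhl1 at 2.51 and Tagln at 1.70 TPM in MT and 4.80 and 1.30 TPM in WT. The immediate early genes had 14 of 15 below 0 there, none called, with Dusp1 at 47.9 and Jun at 294 TPM in MT and 88.7 and 456 TPM in WT. The RefSeq promoter table held start windows for 62 of the 70 members, and 5 of them, Actg1, Arpc4, Myl6, Myl9 and Myo1e, contained a CArG box on either strand, which is 8.06%, against 1.81% of all 27025 gene symbols. The TATA box, searched on both strands, was found in Myh7, Myo10, Myo5c, Tmsb10 and Tpm1, also 8.06% of the 62, against 14.4% of all symbols. A match in these letters is a description and not a binding site. The CArG boxes are shown with up to 40 bases on each side, in capitals, as the element that these members share. Myl6 has an outer start and an inner start within the gene, and its box lies before the inner start.
Actg1, chr11:120348536-120348625, minus strand, box starting 90 bases before the start: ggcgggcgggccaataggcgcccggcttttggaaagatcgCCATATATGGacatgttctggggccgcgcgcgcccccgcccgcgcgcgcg
Myl6, chr10:128493010-128493099, minus strand, 50 bases before: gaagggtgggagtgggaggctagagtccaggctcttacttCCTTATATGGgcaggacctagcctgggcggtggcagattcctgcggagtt
Myo1e, chr9:70207278-70207367, plus strand, 32 bases before: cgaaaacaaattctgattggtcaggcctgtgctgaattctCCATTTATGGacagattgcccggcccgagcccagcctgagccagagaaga
Myl9, chr2:156775263-156775352, plus strand, 161 bases before: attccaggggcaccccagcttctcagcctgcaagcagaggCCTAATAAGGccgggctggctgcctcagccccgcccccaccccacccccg
Arpc4, chr6:113377863-113377912, plus strand, at the outer edge of the window: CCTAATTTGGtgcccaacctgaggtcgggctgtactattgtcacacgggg
The 4 of these genes listed in the dDAVP table did not move together, with log2 fold changes of -0.37 for Actg1, 0.25 for Arpc4, 0.22 for Myl6 and -0.06 for Myo1e.

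The ATAC signal at most of the members' promoters was lower with dDAVP, as at most promoters of the genome. Only group values are given, so whether this shared shift lies in the chromatin or in the scaling of the samples was not tested. The authors' deposited table assigns 1391 of its 270806 peaks to 66 members and none to Actg1, Myo15b, Myo19 or Pfn4. A promoter peak, in the annotation of the authors' deposited table, was present for 49 members. Taking the strongest for each gene, 23 of 49 were lower at an adjusted p below 0.05 and none was higher in the authors' deposited table, against 4395 of 12507 genes, 35.1%, lower and 28 genes, 0.224%, higher. The median log2 fold in the authors' deposited table was -0.42 over the 49 and -0.48 over all genes, and 44 of the 49 and 86.9% of all were below 0. Calls followed signal in the authors' deposited table: of members with a mean signal of 8 log2 units or more 14 of 15 were called and of all such genes 72.9%, and under 6 units 3 of 22 members and 4.25% of all genes. With values near those of all promoters, nothing particular to the members can be read from these counts.

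Several abundant members have their main start peak under another annotation. The strongest peak of any annotation over a RefSeq start window, an alternative added after the data were seen, was called lower for 37 of 57 members and for 49.5% of all genes in the authors' deposited table. The median fold of these peaks in the authors' deposited table was -0.47 over the 57 members and -0.49 over all genes. Calls followed signal, as given above, and these counts were not matched for signal. By this reading Pfn2 was at -0.71 (adjusted p 0.000105), Tpm4 at -0.68 (0.00023) and Pfn1 at -0.58 (0.0106) in the authors' deposited table, while their RNA had log2 fold changes of 0.52, 0.53 and 0.28, not called, and that of Pfn2 was 0.29 without saline library 3. Actr1a, whose start peak was at -0.87 (adjusted p 0.00716), and Gsn, whose inner start was at -0.90 (0.000588) while its outer start was at -0.42 (0.112), had RNA log2 fold changes of -0.56 and -0.37, not called, beside these values of the authors' deposited table. Among the 15 members with a called promoter and a listed RNA value, 8 had an RNA log2 fold change below 0, and among the 16 without a call 10 did.

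**Figure D5:**
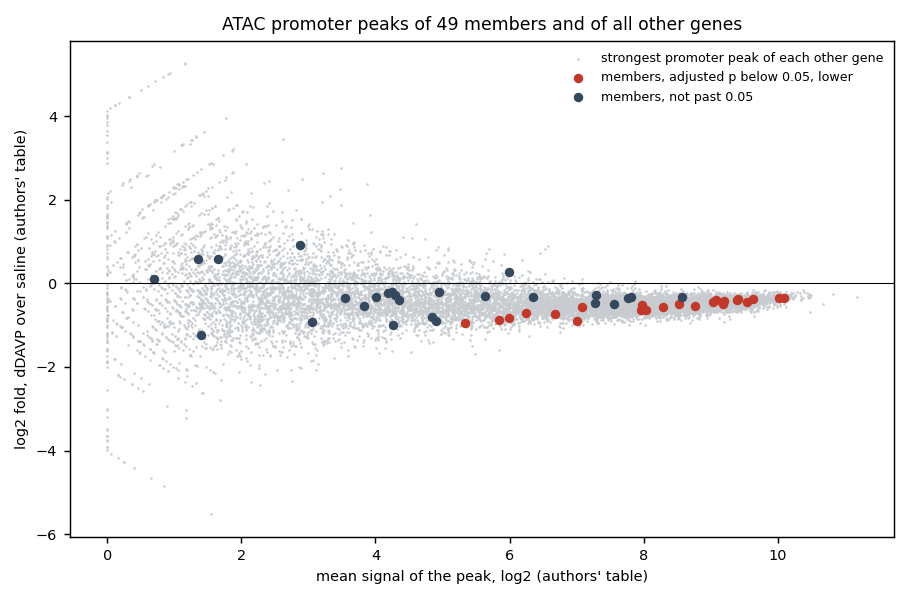
Log2 fold (dDAVP over saline) against mean log2 signal for the strongest promoter peak of each gene in the authors' deposited table. The 49 members are coloured, in red the 23 called lower and in dark blue those not past 0.05, over all other genes in grey. The cloud lies below 0 at high signal, and the members lie inside it.

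Over all peaks assigned to members 130 were called lower, in 50 members, and 5 higher in the authors' deposited table, where 5.98% of all peaks were called lower and 0.846% higher. Actb carried a peak at its transcript end, chr5:142902357-142903235, with signals of 6.60 log2 units in dDAVP and 8.12 in saline, a fold of -1.41 and an adjusted p of 1.1e-06 in the authors' deposited table, while its main peak in the first intron was at -0.41 (adjusted p 0.00748). The 5 peaks called higher in the authors' deposited table lay in intron 1 of Myo5a, where the saline signal is listed at 0, in intron 9 of Tpm1, in intron 1 of Msn, near Actn1, and in intron 33 of Myo5a, which neighbours Myo5c and whose peak there is assigned to Myo5c. The strongest of them in the authors' deposited table was that last peak, chr9:75198629-75199457, with 5.72 log2 units in dDAVP and 4.84 in saline, a fold of 0.996 and an adjusted p of 0.0128. The intergenic peak nearest to Actn1, chr12:80291865-80292428, had 5.54 in dDAVP and 4.54 in saline, a fold of 1.12 and an adjusted p of 0.0109 in the authors' deposited table.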

How the data were processed

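RNA was measured in 8 libraries of the dDAVP comparison and 24 of the β-catenin comparison, and open chromatin in 6 ATAC samples. The deposited TPM values are the authors' own; the submitters' processing notes name build mm10, STAR, RSEM, cutadapt 3.4, Bowtie2, MACS2 and DiffBind without saying which step each did, and other versions are not given in the sources used here. Per the file headers, the deposited ATAC table holds group values on a log2 scale, a log2 fold and an adjusted p-value per peak; it has no sample values. The authors' deposited adjusted p-value of the dDAVP table was used beside the fits here. From TPM, log2(TPM + 1) was fitted with limma 3.58.1 (R 4.3.3, trend on), with 3 libraries averaged per unit and adjustment over all 5035 or 15013 genes (mean of at least 1 TPM). The script was tested on simulated data. The 8 log2 copies of sample columns were not used. TPM hides depth, and a gene's value depends on all others in its library. Promoter windows (GRCm38.p6) were matched by symbol.

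The members, gene lists, roles and tests were chosen with earlier results of these data known. Genes named by rule were those past the threshold, the 10 of highest mean, the 5 largest changes each way, Ezr, Msn, Rdx, Myo5b, Myh9 and Gsn and, of each pathway list, the 2 genes of smallest p (1 member and 1 list that this takes are not reported here). All other members and markers given with values, the family shares and the Myo1c start sites were picked after their values were seen. Alternatives covered pseudocount, scaling, filters, trend, replicate block and each sample left out.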

Additional observations from a re-analysis of the deposited data

Results flagged for a closer look

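In 6 of 92 groups of 4 examined, the highest or lowest value lay far from the other 3 by Dixon's criterion. Its nominal rate is about 1 in 20 groups. These groups share libraries, and some genes were named for their large changes, so that rate cannot serve to judge the 6. Actr1a in saline library 4 stood at 158 TPM beside 58.4 to 75.3 TPM in the other saline libraries. Gsn in saline library 2 was low at 301 TPM beside 384 to 400.0 TPM. Myl6 in dDAVP library 3 was low at 769 TPM beside 857 to 861 TPM. Myh9 in MT unit 4 was low at 27.9 TPM beside 34.3 to 34.8 TPM. Pfn3 in WT unit 3 stood at 6.70 TPM beside 0.973 to 1.18 TPM. Rdx in WT unit 2 stood at 65.6 TPM beside 60.8 to 61.4 TPM.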

How the results depend on the processing

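No member was called in either RNA comparison under any alternative run. Called genes over the whole dDAVP table, 35 as reported, were 18 without the trend, 8 with the replicate block, and 7 to 47 with a library left out; dDAVP library 3 gave the 7. In MT against WT, 0 as reported, they were 1 with the 24 libraries and unit as a random block and 0 to 5 with a unit left out, 5 without MT unit 4. Called ATAC promoters of members, 23 as reported, were 11 at an adjusted p of 0.01 and 37 over RefSeq start windows. Of 831 gene values under alternatives 25 changed sign, in genes not called. For dDAVP, Dstn was 0.019 under median of ratios and 0.020 under quantile scaling, and with a library left out Dstn ranged from -0.15 to 0.058, Cfl1 from -0.029 to 0.14, Myl12a from -0.13 to 0.20 and Msn from -0.16 to 0.28; Actr10 was 0.11 without saline libraries 3 and 4. For MT against WT, Gsn was -0.0037 under median of ratios and -0.012 without WT unit 1 library 1, and with a unit left out Gsn ranged from -0.030 to 0.054, Actg1 from -0.036 to 0.12, Msn from -0.056 to 0.20, Myl12a from -0.051 to 0.086, Myl9 from -0.51 to 0.043 and Pfn1 from -0.043 to 0.00062. The cause of these moves was not tested. The member median for dDAVP was 0.03 under median of ratios and 0.03 under quantile scaling, and -0.11 to 0.04 with a library left out, with 0.04 without dDAVP library 3. Same-numbered libraries did not all deviate together (correlations of -0.149 to 0.230 with dDAVP and -0.028 to 0.040 in MT and WT), so the numbers were not taken as pairs. Depth limits cannot be given for TPM.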
